A study of Mus musculus with 2 samples.

Results

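The tongue primordium of the mouse was examined for 5 microRNAs (miRNAs) known from blood vessels and blood cells: mmu-miR-126-3p and mmu-miR-126-5p of endothelial cells, mmu-miR-451 and mmu-miR-144 of red cells, and mmu-miR-223 of myeloid cells. They were listed by name, and all 5 of 5 were on the array, with 10 probes, among 1080 miRNAs with 2780 probes. Tissue was cut from the middle of the mandibular arch of ICR embryos aged E10.5 (embryonic days) or E11.5. The labels name no allele and no treatment, and the embryos were rinsed to wash off amniotic fluid and blood. Each stage is a single pool of 40 embryos on a single array. There are thus no replicates, no difference was tested, and the errors given cover repeated spots of a probe only.

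As background, a miRNA is cut from a hairpin precursor and guides Argonaute proteins to mRNAs that pair with its seed, the stretch near its 5′ end. miR-126 is made from an intron of Egfl7, a gene of endothelial cells, and sustains signalling by vascular growth factors. miR-144 and miR-451 come from one erythroid transcript under the control of GATA1, and miR-451 is unusual in that its short hairpin is cut by Argonaute 2 rather than by Dicer. miR-223 is a miRNA of granulocytes and monocytes. The circulating blood of embryos of this age is dominated by nucleated red cells from the yolk sac.

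The mature sequences are shown first because they fix what each probe can read. They come from RefSeq (GRCm38.p6), matched by exact pairing with the array's probes, with the seed (bases 2 to 8) in capitals. Of the 5 miRNAs, 4 had a match, under the present names miR-126a-3p, miR-451a, miR-144-3p and miR-223-3p, and miR-126-5p had none. The miR-126-5p probes do pair over their full length with the Mir126a hairpin, so only the mature entry is missing.

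miR-126-3p: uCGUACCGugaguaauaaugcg
miR-451: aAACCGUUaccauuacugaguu
miR-144: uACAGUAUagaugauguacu
miR-223: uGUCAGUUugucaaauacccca

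The 4 seeds were distinct, and none of the other mature miRNAs among the 1679 names of that table shared any of them. Each probe that paired did so with a single mature name. The longer probe of each miRNA extended the shorter by 1 base at its 3′ end, shown in capitals below, so the probes of a miRNA are not independent readings.

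miR-126-3p, longer probe: cgcattattactcacggtA
miR-126-5p, longer probe: cgcgtaccaaaagtaataatG
miR-451, longer probe: aactcagtaatggtaacggttT
miR-144, longer probe: agtacatcatctatactgtA
miR-223, longer probe: tggggtatttgacaaactgaC

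The miR-126-3p probes paired with bases 5 to 22 and 4 to 22 of the miRNA. They so covered 4 and 5 of the 7 seed bases, while those of miR-451 and miR-144 covered the whole seed. The array design places the target of the longer miR-126-3p probe at chr2:26446926-26446943 (mm9, plus strand), and that of miR-126-5p beside it at chr2:26446886-26446905. In the RefSeq gene table, searched by gene name rather than by these intervals, Mir126a lies within the span of Egfl7. The miR-144 and miR-451 targets lie at chr11:77886550-77886568 and chr11:77886689-77886709, both on the plus strand and separated by 120 bases. In the gene table neither Mir144 nor Mir451a lies inside a protein-coding gene, and Flot2 and Eral1 are the nearest ones on either side. The miR-223 target is at chrX:93438225-93438244, and the gene table has Mir223 between Msn and Vsig4. Each of these mapped intervals is 1 base shorter than its probe.

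The hairpins of the erythroid pair show how differently the neighbours are built, with the measured mature strand in capitals. In Mir144 it fills bases 43 to 62 of 66, on the 3′ side, whereas in Mir451a it fills bases 17 to 38 of 72 and runs through the loop.

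Mir144: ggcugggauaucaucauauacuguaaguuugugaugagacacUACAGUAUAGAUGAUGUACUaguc
Mir451a: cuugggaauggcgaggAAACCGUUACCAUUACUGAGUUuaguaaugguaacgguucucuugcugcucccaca

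Detection required that 50% or more of a probe's spots be marked well above background by the scanner software. At E10.5, 2 of the 5 miRNAs were detected, miR-126-3p and miR-451, where 13.3% of all miRNAs were. At E11.5, 3 of the 5 were, with miR-223 added, where 18.4% of all miRNAs were. miR-126-5p and miR-144 were detected at neither stage. The lowest detected probe had an intensity of 30.9 at E10.5 and 29.5 at E11.5. Negative control spots averaged 7.87 ± 6.16 and 5.88 ± 5.60 (SD, n = 1000 spots each). The arrays were on the same slide and were scanned together, and no miRNA spot was saturated.

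miR-126-3p, the strand of the hairpin most used as an endothelial marker, was well above background on every spot of both stages. Its shorter probe averaged 217 ± 9.50 (SD, 20 spots, from 203 to 237) on the E10.5 array and 306 ± 14.2 (20 spots, from 281 to 336) at E11.5. Its longer probe averaged 317 ± 9.74 (19 spots, from 299 to 333) and 449 ± 10.7 (17 spots, from 425 to 468). For both probes every E11.5 spot was brighter than every E10.5 spot. The unscaled rise was 1.42-fold for each probe, or log2 differences of 0.50 ± 0.021 and 0.50 ± 0.013 (spot SE).

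The other strand of the same hairpin, miR-126-5p, stayed at background. Its probes averaged 4.82 ± 5.96 and 12.5 ± 4.06 at E10.5, and 5.45 ± 3.13 and 12.2 ± 5.36 at E11.5 (SD over 16 to 20 spots). None of their spots was well above background on either array. Among the 1000 negative control spots of each array, 193 (E10.5) and 104 (E11.5) were at least as bright as the mean of the brighter miR-126-5p probe, so it did not stand clear of the controls. Levels of the strands were not set against each other, since probes differ in how strongly they bind.

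miR-451, which supports red cell maturation, was likewise well above background on every spot. Its shorter probe averaged 48.2 ± 6.82 (20 spots, from 37.8 to 60.7) at E10.5 and 79.7 ± 7.0 (19 spots, from 70.0 to 92.5) at E11.5. Its longer probe averaged 91.5 ± 6.14 (20 spots, from 82.8 to 104) and 149 ± 13.4 (20 spots, from 122 to 172). Here too the spots of the stages did not overlap. The unscaled rise was 1.65-fold and 1.63-fold, or 0.73 ± 0.054 and 0.70 ± 0.036 on the log2 scale.

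miR-144, made from the same transcript, was not seen. Its probes averaged -1.12 ± 3.92 and 1.69 ± 4.14 at E10.5 and -0.41 ± 4.06 and 3.54 ± 4.94 at E11.5 (SD over 19 or 20 spots). Most negative controls were brighter than these means: 944 and 865 of the 1000 spots for E10.5, and 886 and 686 for E11.5. The opposite strand, miR-144*, was also not detected, with 7.04 ± 4.34 at E10.5 and 6.01 ± 3.27 at E11.5 for its longer probe. The erythroid transcript was thus read through miR-451 alone.

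miR-223 lay at the edge of detection. Its longer probe averaged 25.4 ± 5.99 (20 spots, from 12.6 to 36.4) at E10.5 and 36.7 ± 7.16 (20 spots, from 22.4 to 50.1) at E11.5. The spots of the stages overlapped, with 9 of the 20 at E11.5 above the brightest at E10.5. Those well above background numbered 3 of 20 at E10.5 and 16 of 20 at E11.5. The shorter probe averaged 22.2 ± 4.75 and 19.0 ± 4.23 (18 spots each), with no spot well above background, so the probes did not share a direction. Both lay above nearly all negative controls: at most 11 of the 1000 control spots were as bright as a probe's mean on either array. Feature Extraction's own detection flag was set for miR-223 at both stages. Its opposite strand, miR-223*, was not detected, and the means of its 3 probes were all below 0.

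**Figure D1:**
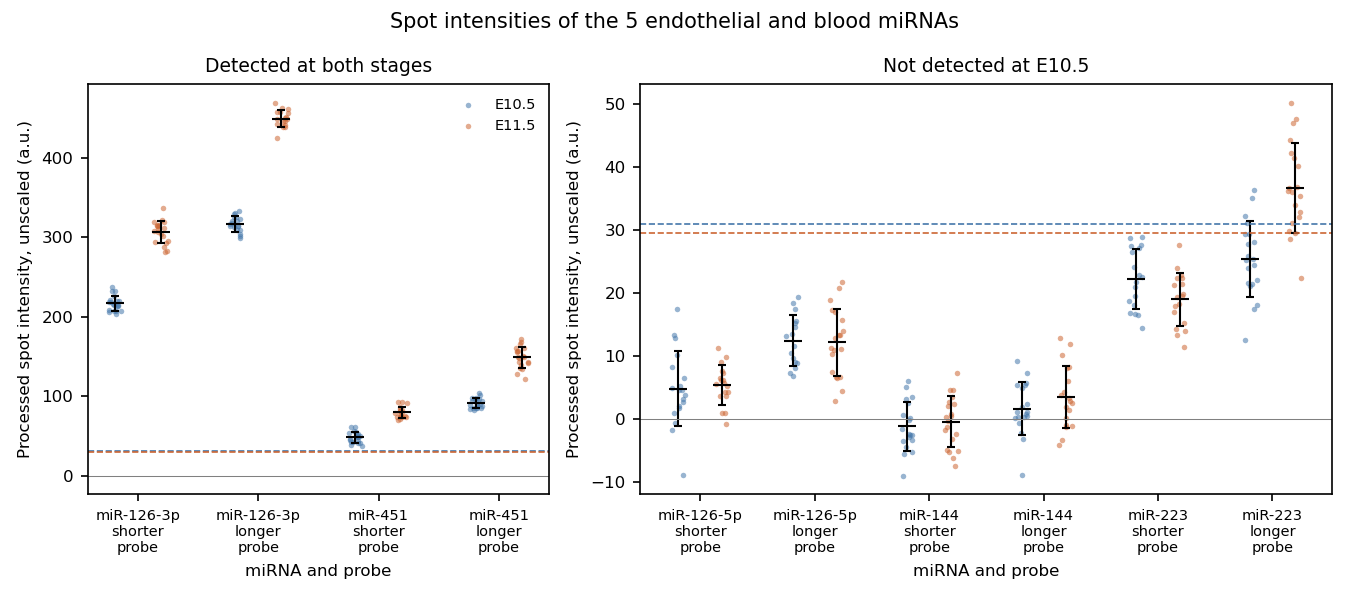
Processed spot intensities (vertical axis, arbitrary units, unscaled) of the shorter and longer probe of each miRNA at E10.5 (blue) and E11.5 (orange); points are spots without outlier flags, black bars the mean ± SD over spots, and dashed lines the lowest detected probe of each array (30.9 and 29.5). Spots of the stages separate for miR-126-3p and miR-451, overlap for the longer miR-223 probe, and lie under the dashed lines for miR-126-5p and miR-144.

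Most miRNAs measured on both arrays were brighter on the E11.5 array, while its negative controls were not (5.88 against 7.87). The stage differences therefore depend on how the arrays are set against each other. Over the 218 probes detected on both arrays the median unscaled log2 ratio was 1.20, and 124 of the 137 miRNAs measured on both, or 90.5%, were brighter at E11.5 before scaling. Scaling each array to the 75th percentile of those probes took 1.31 off every log2 difference. Relative to the other detected miRNAs, miR-126-3p was then lower at E11.5 by a log2 difference of -0.81 ± 0.012 (1.76-fold lower) and miR-451 by -0.60 ± 0.033 (1.51-fold lower). The median over the 137 miRNAs measured on both arrays was -0.07.

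The direction of both rests on that scaling. With no scaling miR-126-3p was at 0.50 and miR-451 at 0.71, and with the 75th percentile of all miRNA probes they were at 0.40 and 0.62. Scaled to the control probes detected on both arrays, whose median log2 ratio was 0.49, miR-126-3p was at 0.012 and miR-451 at 0.22. The position among the miRNAs is the same whatever single factor is used: 32 of the 137, or 23.4%, had a difference as low as that of miR-126-3p, and 43, or 31.4%, as low as that of miR-451. Neither of them was 2-fold lower, a size that 13.9% of the measured miRNAs reached as scaled, and neither was 2-fold higher, which 3.65% were. In pooled tissue, fewer cells of a type and less RNA per cell cannot be told apart.

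**Figure D2:**
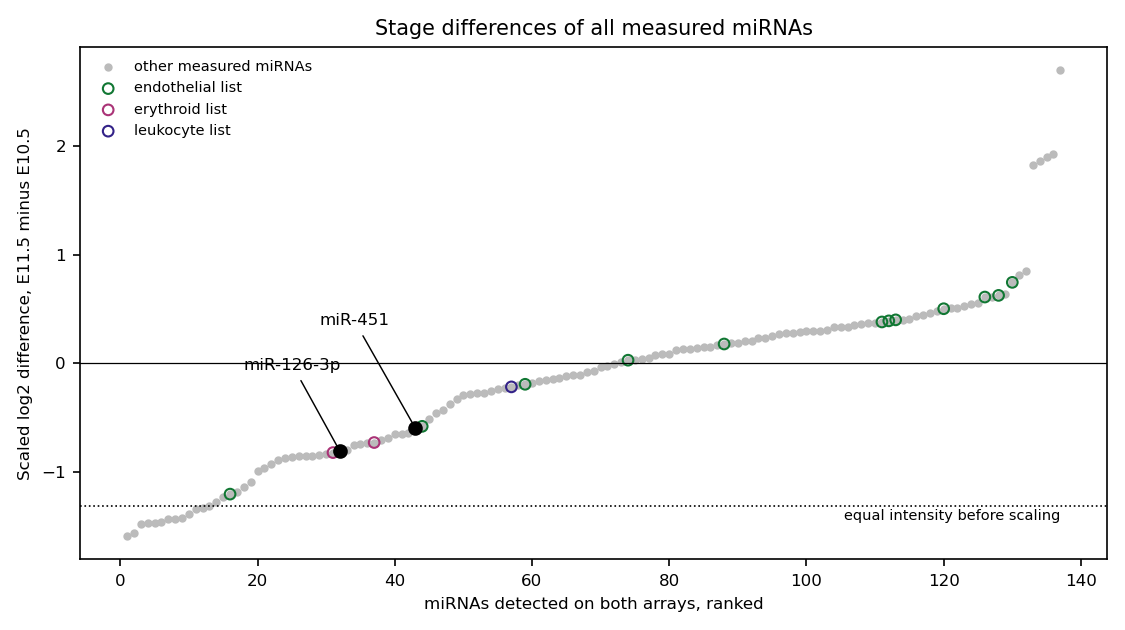
Scaled log2 differences, E11.5 minus E10.5 (vertical axis), of the 137 miRNAs detected on both arrays, ranked from lowest to highest (horizontal axis), with miR-126-3p and miR-451 in black and members of the endothelial, erythroid and leukocyte lists circled. miR-126-3p (-0.81) and miR-451 (-0.60) lie in the lower part of the ranking, above the dotted line, which marks equal intensity before scaling.

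The vessel and red cell miRNAs can be set against each other without choosing a factor, because any single factor cancels. The log2 stage difference of miR-451 was 0.21 ± 0.035 (spot SE) above that of miR-126-3p, which was not tested. The value depended on the processing. With normexp background correction, which adds an offset of 50 to all spots, the difference was -0.022. With the deposited value table it was 0.28, and with quantile normalization 0.30. Variation between pools and between arrays is not in these spot errors.

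For miR-223, detected at E11.5 only, a fold can be given as a lower bound, set against the lowest detected probe at E10.5. It rests on the longer probe alone, for which the unscaled bound put E11.5 at least 1.19-fold higher, and as scaled no bound above 1 could be given. The shorter probe, not detected at either stage, was dimmer at E11.5 (19.0 against 22.2), so this is no bound for the probes together. By the less strict detection flag it was measured at both stages, with a scaled log2 difference of -1.10, and the deposited value table gave -0.97 (22.1 at E10.5 and 11.3 at E11.5). The direction for miR-223 was therefore not settled by these arrays.

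The deposited value table, whose normalization is not stated, listed the same miRNAs. miR-126-3p was at 271 in it at E10.5 and at 145 at E11.5, a log2 difference of -0.91. miR-451 was at 68.9 and 44.6, a log2 difference of -0.63. miR-126-5p and miR-144 were at 0.1 at both stages, the value given to miRNAs not called detected.

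**Figure D3:**
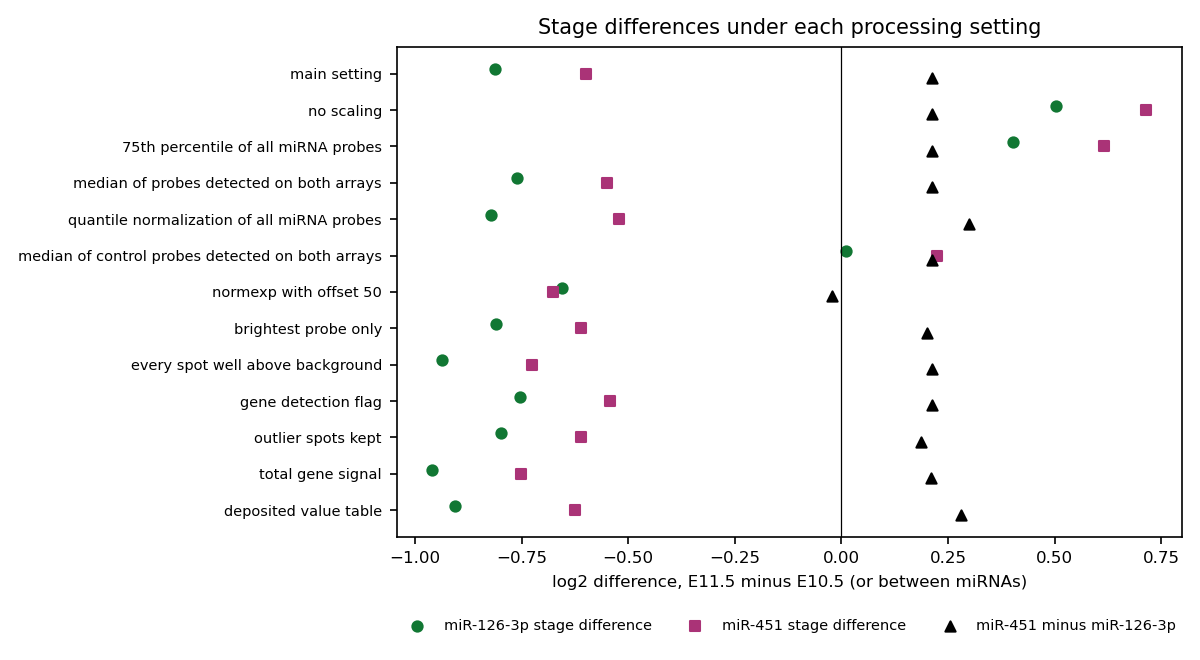
Log2 differences, E11.5 minus E10.5 (horizontal axis), of miR-126-3p (circles) and miR-451 (squares), and the difference between them (triangles), under the main setting and each of 12 alternatives (vertical axis). Both miRNAs lie above 0 with no scaling, the 75th percentile of all probes and control probes, and below 0 in the other settings, while the triangles lie between 0.19 and 0.30 except with normexp (-0.022).

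Over these 2 arrays the differences nearest to that of miR-126-3p were those of miR-17* (-0.80), miR-15a (-0.82) and miR-15b (-0.84). Nearest to miR-451 were miR-296-5p (-0.58), miR-130b (-0.65) and miR-298 (-0.66). With a single difference per miRNA, such nearness is a description only.

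Other miRNAs linked to endothelium, 20 with miR-126-3p and miR-126-5p included, are mostly made in other cells too. The E10.5 array detected 13 of them and the E11.5 array those and miR-210, so 13 were measured on both. Over all miRNAs on the array the shares detected were 13.3% and 18.4%, against which this count and those of the lists that follow are to be read. As scaled, 9 of the 13 were higher at E11.5 and 4 lower, with a median of 0.38. Over all measured miRNAs the median was -0.07, so more of those were lower than higher. Without scaling all 13 were brighter, as 90.5% of all measured miRNAs were, with a median of 1.69 against 1.24 over all. The highest was miR-23b, which is made from one cluster with miR-27b and miR-24, at 0.74 ± 0.019, and the lowest miR-92a of the Mir17 cluster at -1.21 ± 0.012. miR-126-3p was the second lowest of the 13. miR-221 and miR-222, which restrain the response of endothelial cells to Kit ligand, and miR-132, miR-10a and miR-10b were not detected at either stage.

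Of the 10 miRNAs of the erythroid list, 9 were on the array under the listed names, 3 were detected at the earlier stage and 5 at the later, with miR-210 and miR-3107 added. miR-191 was detected at neither. The 3 measured ones were miR-15a at -0.82 ± 0.020, miR-16 at -0.73 ± 0.017 and miR-451 at -0.60 ± 0.033, all below the median of -0.07 over all measured miRNAs. Without scaling they were at 0.49, 0.58 and 0.71, brighter like 90.5% of the measured miRNAs and below the median of 1.24. miR-15a and miR-16 are made in most cells. miR-486, a miRNA of red cells and muscle made from Ank1, was not listed under its own name, but the probes named miR-3107 carry both names in the accession column of the files. They paired with none of the mature sequences in the RefSeq table. The files give no single mapped target for them, and their mapping entries were not used here. Which miRNA they read was thus taken from the accession column alone. The genes Mir486 and Mir3107 overlap within Ank1 in the gene table.

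The longer of these probes, with its extra base in capitals, is shown because it went from no spot well above background at E10.5 to 20 of 20 at E11.5.

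miR-3107 and miR-486, longer probe: ctcggggcagctcA

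It averaged 4.39 ± 4.75 (20 spots, from -2.31 to 12.7) at E10.5 and 55.1 ± 7.59 (20 spots, from 39.4 to 68.6) at E11.5. The shorter probe averaged 1.47 ± 3.39 (18 spots) and 24.9 ± 5.48 (20 spots). At E11.5, 3 of its 20 spots were well above background, so detection rests on the longer probe alone. The shorter and longer probes have 13 and 14 bases, with 76.9% and 71.4% of them G or C. In both probes, every E11.5 spot was brighter than every E10.5 spot. For the longer probe the unscaled bound put E11.5 at least 1.78-fold higher, and as scaled no bound above 1 could be given. Of the muscle miRNAs miR-206, miR-1a, miR-133a and miR-133b, 0 of 4 were detected at E10.5 and 4 of 4 at E11.5 (13.3% and 18.4% over all miRNAs), and their cells' part in the signal of these probes was not tested. The other strand, miR-486*, was not detected at either stage, with 6.52 ± 3.43 for its longer probe at E11.5.

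Of 10 leukocyte miRNAs on the array, the earlier array detected 1 and the later 3, shares close to 13.3% and somewhat above 18.4% over all miRNAs. miR-342-3p was detected at both stages, miR-223 and miR-181a at E11.5 only, and 7 at neither. miR-342-3p, also made outside blood, was at -0.22 ± 0.015 as scaled and 1.09 unscaled. miR-142-3p, which marks nearly all blood cells other than mature red cells, averaged 12.6 ± 4.14 (15 spots) at E10.5 and 15.5 ± 3.75 (17 spots) at E11.5 with its longer probe, and no spot was well above background. miR-142-5p, the lymphocyte miRNA miR-150, and miR-155, miR-146a and miR-146b of activated leukocytes were likewise not detected at either stage. Markers of other tissues in the same pools were detected as follows. Of 7 epithelial miRNAs, 4 were found on the earlier array and 5 on the later, and the 4 measured on both had a median scaled difference of -1.37 (-0.06 unscaled), below those of miR-126-3p and miR-451. Of 4 neural miRNAs, 0 and 1 were found. The part of these tissues in the vessel and blood signals was not tested.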

How the data were processed

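Total RNA carrying a single dye, Cy3, was put on Agilent arrays for miRNA, per the labels. For each spot the deposited scanner files give an intensity from which Feature Extraction 10.7.1.1 had subtracted background, without normalization between arrays and with targets placed on mm9, per the file headers. The submitters' processing notes name version 9.5.1.1. Flags for outliers, detection and saturation were other deposited columns used. Precision is limited by the number of arrays.

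Outlier spots (2058 of 43200 for E10.5, 2118 for E11.5) were dropped and the remaining spots of a probe averaged. Scaling divided the arrays by 194 and 482, their 75th percentiles over 218 probes detected in common. Log2 differences of those probes were averaged per miRNA. Probe averaging, scaling and the differences per miRNA were tested on simulated data. Outlier removal, the detection rule, the bounds and the alternatives were not. The 5 miRNAs and the lists (endothelial, erythroid, leukocyte, muscle, epithelial, neural) were chosen with earlier results of these data known. By rule the text names all 5, their opposite strands, miR-486, miR-486* and miR-3107, the extremes of the vessel and blood lists, and the 3 miRNAs nearest in difference. Any further name was picked with its values in view. The 12 alternatives are given in the closing section. Software was Python 3.11.15 with numpy 2.4.6 and pandas 2.3.3, and R 4.3.3 with limma 3.58.1.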

Additional observations from a re-analysis of the deposited data

How the results depend on the processing

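No paired analysis was possible because there is 1 array per stage. The 12 alternatives covered scaling, background correction, probe summary, detection, outlier spots and the deposited value table. The comparison of miR-451 with miR-126-3p was added after seeing the data. miR-126-3p was above 0 with no scaling (0.50), the 75th percentile of all miRNA probes (0.40) and control probes (0.012), and below 0 in the other 9, at -0.65 with normexp, -0.94 with every spot required above background, -0.96 with the total gene signal and -0.91 with the value table. miR-451 was above 0 in the same 3 settings (0.71, 0.62 and 0.22) and from -0.75 to -0.52 in the other 9. miR-451 minus miR-126-3p was -0.022 with normexp and otherwise from 0.19 to 0.30. The log2 lower bound of miR-223, from its longer probe, was above 0 in 2 of these: 0.25 unscaled, and 0.15 where the percentile was taken over all probes. Of the 5 miRNAs, 3 were detected at E10.5 by the scanner's detection flag or the value table. With every spot required above background, 2 were detected at E11.5. Each time the change was through miR-223. These rules also changed the number of all miRNAs measured on both arrays. It was 169 by the flag or the value table and 119 with every spot required, against 137 in the main setting. The share of all miRNAs detected at each stage was not worked out under these rules. miR-126-5p and miR-144 were detected in no setting, so they have no difference. Intensities near the lowest detected probe limit what can be said of miR-223.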
